A study of Rattus norvegicus with 4 samples.

Results

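Of the 23999 genes listed in each library, 41 were collagen genes, taken as every gene whose symbol starts with Col followed by a digit, except Col17a1. They were described in rat skin wounds at day 4, by cell class and by library. By the role of their proteins they fell into 10 fibrillar, 9 basement membrane, 9 fibril-associated (FACIT), 5 beaded filament, 3 network and 3 transmembrane collagens and 2 others, Col26a1 and Col28a1. Col1a2, Col6a3 and Col21a1 were not analysed here, so type I and type VI collagen are represented by only part of their chains.

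Collagens are triple helices of 3 alpha chains, wound in the endoplasmic reticulum and assembled outside the cell. Fibrillar collagens such as types I, III and V form the tensile fibrils of the dermis, and FACIT collagens sit on the surface of those fibrils. Type IV forms the sheet of basement membranes under epithelia and around vessels, types XV and XVIII lie within or beside that sheet, and type VII forms the fibrils that anchor the epidermis to the dermis. In a healing wound, fibroblasts of the granulation tissue are the main known source of fibrillar collagen, type III being laid down early and exchanged for type I later.

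The samples were skin of Rattus norvegicus from a wound healing model, and single cells were captured in droplets and their RNA sequenced (10X Genomics). The injected group of 2 libraries received purified migrasomes, which are vesicles left behind by migrating cells. The uninjected group of 2 libraries is labelled as migrasomes uninjected, which does not say whether a carrier without migrasomes was injected. An injection as such and its content therefore cannot be told apart here. Both groups came from the same wound model at the same day, and the labels name no strain, age, sex or genotype. The labels do not say that the libraries of a group came from separate animals, so the spread behind each p-value is that of libraries and may be technical.

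The libraries held 75823418 to 105605297 unique molecular identifiers (UMIs, counts of captured RNA molecules), 6118 to 9860 kept cells each, and 14 to 29 shared cell barcodes per pair of libraries. Cells were put into classes by marker genes with no collagen among them. Fibroblast-like cells numbered 352, 609, 819 and 573 in uninjected 1, uninjected 2, injected 1 and injected 2, and every list of 4 values below keeps that order. Keratinocyte-like cells numbered 3455, 2843, 2682 and 2670, endothelial-like cells 45, 38, 134 and 31, mural-like cells (pericytes and vascular smooth muscle) 55, 20, 58 and 8, and skeletal muscle-like cells 25, 31, 51 and 7. The fibroblast marker list summed to 12249 to 17440 CPM (UMIs of the genes per 1000000 UMIs of the class) in the fibroblast class, 1137 to 1621 CPM in the mural class, 70.6 to 158 CPM in the endothelial class and 65.9 to 163 CPM in the keratinocyte class. Uninjected 1 stood apart, with ribosomal protein genes at 16.1% of fibroblast UMIs against 7.39 to 8.69% in the others. Its free RNA bound was also the highest among keratinocytes, at most 12.2% of the class's UMIs against at most 3.55 to 5.59%.

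The 6 type IV genes lie in 3 head-to-head pairs, and the bases between them are shown because the levels of paired genes are compared further on. In RefSeq's table for the GRCr8 assembly, which is not known to be the build of the deposited counts, 76 bases separated the promoter starts of Col4a1 and Col4a2, 412 those of Col4a3 and Col4a4, and 1414 those of Col4a5 and Col4a6. The whole stretch between the first pair, and the bases before Col4a4, Col4a5 and Col4a6 that lie outside annotated gene spans, are printed 5′ to 3′ on the strand of the gene named first, with each GGGCGG or its complement CCGCCC in capitals. Their positions are chr16:84885521-84885596 (plus strand), chr9:91323578-91323827 (minus strand), chrX:109907109-109907250 (plus strand) and chrX:109905988-109906194 (minus strand).
Col4a1 to Col4a2: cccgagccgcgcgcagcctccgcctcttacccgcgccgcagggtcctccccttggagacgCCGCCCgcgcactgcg
before Col4a4: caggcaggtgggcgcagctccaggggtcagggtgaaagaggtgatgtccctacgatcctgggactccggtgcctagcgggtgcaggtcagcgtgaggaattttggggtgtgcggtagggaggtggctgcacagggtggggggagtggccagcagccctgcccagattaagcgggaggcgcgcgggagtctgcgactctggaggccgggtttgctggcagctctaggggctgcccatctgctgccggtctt
before Col4a5: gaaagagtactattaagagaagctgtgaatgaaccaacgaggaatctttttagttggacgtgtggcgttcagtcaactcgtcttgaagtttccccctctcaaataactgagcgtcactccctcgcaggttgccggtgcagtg
before Col4a6: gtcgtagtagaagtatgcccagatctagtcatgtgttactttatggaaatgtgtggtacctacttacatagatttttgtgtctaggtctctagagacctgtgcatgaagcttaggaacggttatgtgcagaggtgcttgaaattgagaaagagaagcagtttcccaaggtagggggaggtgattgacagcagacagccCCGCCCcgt
The table held promoters of 32 of the 41 collagen genes. Over the 250 bases before the start and both strands, GGGCGG, the core of a GC box, was found in 19 of these 32 (59.4%) and in 30.5% of all 33469 promoters. CCAAT was found in 9 (28.1%, against 34.0% of all promoters) and TATAAA in 2, Col13a1 and Col10a1 (6.25%, against 12.9%). The Col4a1 to Col4a2 stretch held 78.9% G and C and 1 of the capitalised motifs, and the Col4a6 stretch also held 1. A collagen gene counted if any of its promoter entries held the motif, whereas the share of all promoters was taken per entry. The 2 shares are therefore not in the same unit. Col4a1 and Col4a2 share the stretch printed above and counted as 2 genes. A letter match of this kind is a description of the sequence only.

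Fibroblasts were the source of most collagen RNA in every library. They gave 86.4, 92.9, 92.1 and 94.7% of the collagen UMIs of all classed cells, keratinocytes 10.6, 5.77, 4.55 and 4.52%, and mural and endothelial cells at most 1.80% each. Within fibroblasts, collagens made up 3.17, 3.42, 3.97 and 4.44% of all UMIs, and 91.3 to 93.5% of that was fibrillar. The mix differed by class. Basement membrane collagens were 62.4 to 68.2% of keratinocyte collagen UMIs, 87.6 to 91.5% of endothelial and 23.7 to 44.3% of mural collagen UMIs. Of the 33 collagen genes with at least 100 UMIs in all, the mean level was highest in fibroblasts for 13 and in mural cells for 9. It was highest in mast cells for 3, in endothelial, keratinocyte and dendritic cells for 2 each, and in T and NK and skeletal muscle cells for 1 each. The mural 9 included Col22a1 on 5 mural UMIs and Col19a1, with 13 UMIs from 1 cell of injected 2. The mast 3 were Col11a2, Col9a1 and Col25a1, at means of 3.97, 2.88 and 2.76 CPM. Mast cells held only 87447 to 181251 UMIs per library, so these means rest on very few UMIs. The T and NK gene was Col6a5, with 30 of its 40 UMIs in that class from injected 2. The collagen genes under 100 UMIs were Col9a3, Col4a3, Col28a1, Col9a2, Col6a4, Col2a1, Col10a1 and Col23a1, with 3 to 95 UMIs over all cells. In these summed counts, fewer collagen-making cells in a class and less RNA per cell cannot be told apart.

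**Figure D1:**
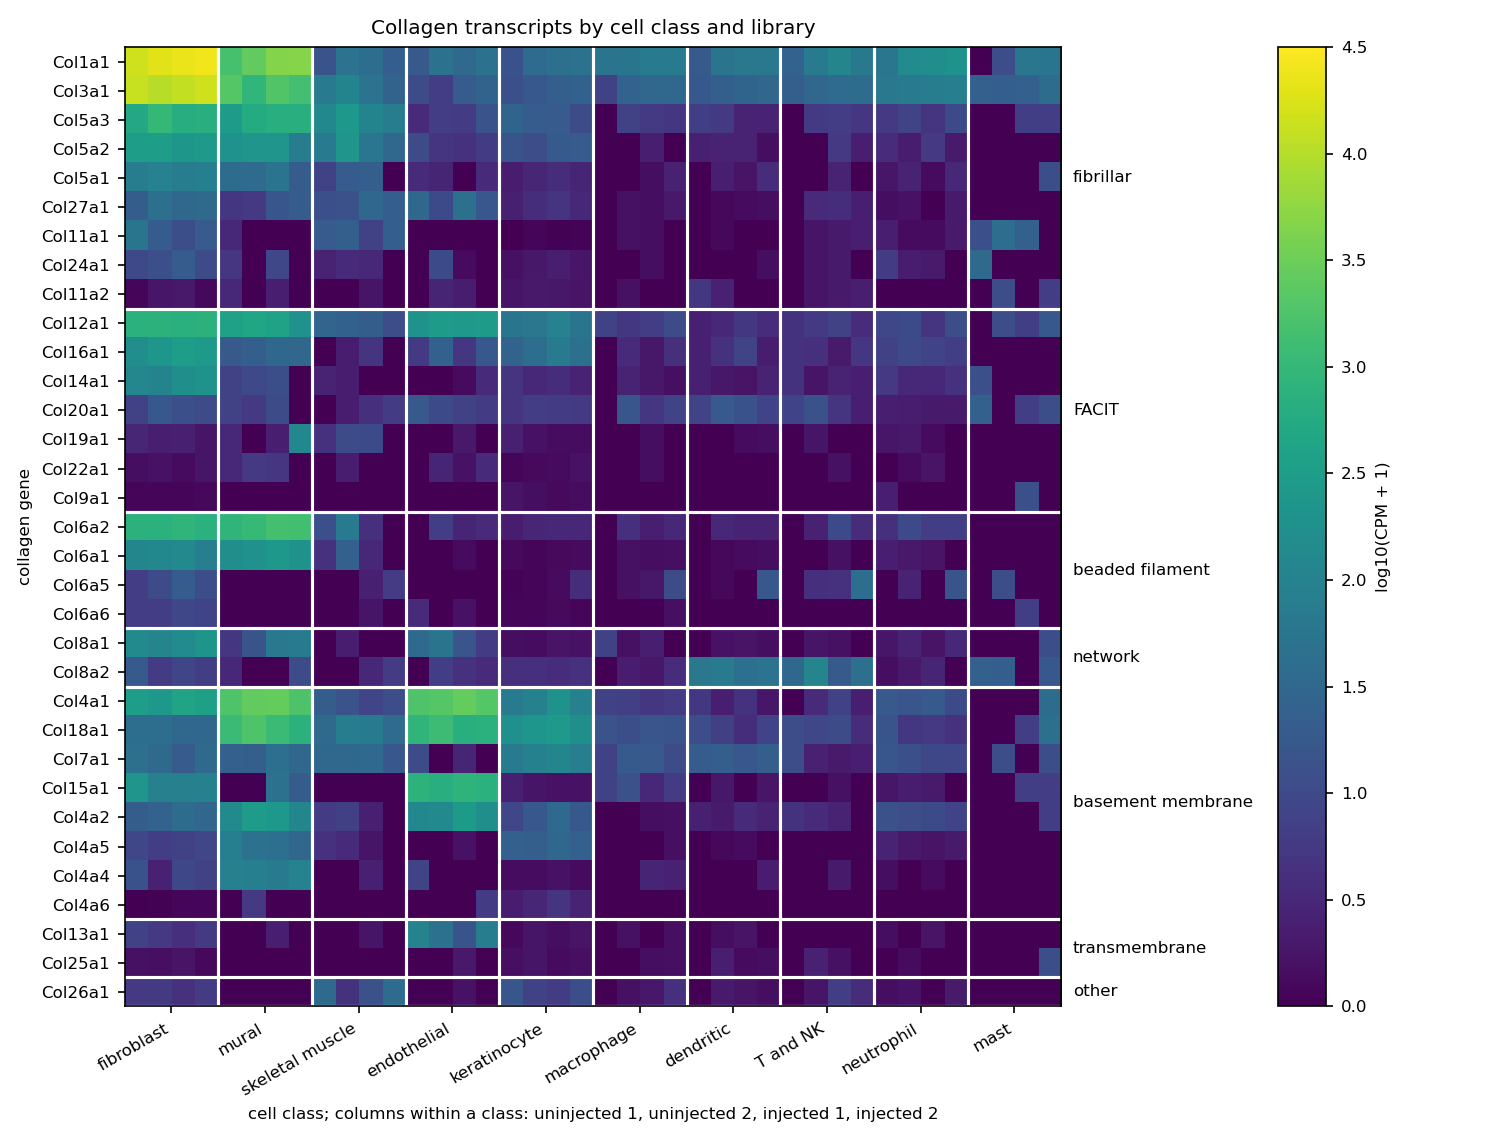
Collagen transcripts by cell class and library, for the 33 genes with at least 100 UMIs, ordered by role. Colour is log10(CPM + 1), and each class has 4 columns in the order uninjected 1, uninjected 2, injected 1 and injected 2. The brightest cells are Col1a1 and Col3a1 in fibroblasts, and Col4a1 and Col18a1 are bright in the mural and endothelial columns.

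The first comparison asked whether collagen levels in fibroblasts differed between injected and uninjected wounds. None of the 31 collagen genes tested passed an adjusted p of 0.05 in edgeR's quasi-likelihood test with Benjamini-Hochberg adjustment over all 13247 genes tested, where 0.0453% of genes (6) passed in all, 0.0377% as higher and 0.00755% as lower. DESeq2 also called 0 of the 31. At an unadjusted p under 0.05 there were 4 collagen genes and 1369 genes overall. The median log2 difference, injected over uninjected and after TMM scaling, was 0.10 over the 31 genes with 16 of them positive, against 0.00 over all genes with 50.1% positive. The other 10 collagen genes had 0 to 35 UMIs in all fibroblasts together, Col23a1 being the one with 0, and were not tested.

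The fibrillar chains carried the largest amounts. Col1a1, which encodes the alpha 1 chain of type I collagen, was at 14818, 19867, 23403 and 25363 CPM, so that both injected libraries lay above both uninjected ones. Its log2 difference was 0.51 ± 0.44 (SE), with an edgeR adjusted p of 0.746. Col3a1, the single chain of type III collagen, was at 13133, 10285, 12284 and 15097 CPM and its groups overlapped (log2 difference 0.21, edgeR adjusted p = 0.922). As a share of fibroblast UMIs, all fibrillar collagens together were 2.90 and 3.16% in the uninjected and 3.67 and 4.15% in the injected libraries, a log2 ratio of means of 0.37. The groups did not overlap, but the exact two-sided permutation test over 2 against 2 libraries gave p = 0.333, which is the smallest p this design allows. The same holds for any single gene whose groups do not overlap. The share of all genes tested without overlap is not given here. A lack of overlap is therefore a description only, here and below. With ribosomal protein genes left out of the totals the log2 ratio was 0.29.

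Unlike Col1a1, the minor fibrillar chains tested did not have both injected libraries above both uninjected ones. Col24a1 had a log2 difference of 0.54, near that of Col1a1, but its groups overlapped (9.04, 11.7, 19.6 and 9.91 CPM). Col27a1 was at 20.1, 43.9, 32.5 and 34.3 CPM (log2 difference 0.10). The type V chains, which join type I fibrils and limit their width, were at 513, 978, 639 and 658 CPM for Col5a3, 324, 338, 236 and 271 CPM for Col5a2 and 79.0, 97.4, 81.0 and 85.8 CPM for Col5a1. For Col5a2 both injected libraries lay below both uninjected ones (log2 difference -0.38, edgeR adjusted p = 0.653), and the other 2 chains overlapped. Col11a1, a type XI chain better known from cartilage, was at 55.3, 19.1, 11.0 and 18.4 CPM. Its high value was that of uninjected 1 alone, and its log2 difference was -1.38 ± 0.56 (edgeR unadjusted p = 0.0431, adjusted p = 0.465). Without uninjected 2, leaving uninjected 1 as the lone control assumed to vary like the injected pair, 3 collagen genes were called lower in edgeR: Col11a1 (log2 difference -2.04, adjusted p = 0.0131), Col15a1 (-1.35, adjusted p = 0.0108) and Col8a2 (-1.47, adjusted p = 0.0442). Without any other library, none was called.

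Of the FACIT collagens, Col14a1 and Col16a1 had higher values in both injected libraries, without a call. Col14a1, which coats mature dermal fibrils, was at 119 and 101 CPM in the uninjected and 176 and 203 CPM in the injected libraries, with a log2 difference of 0.78 ± 0.26 (edgeR unadjusted p = 0.0189, adjusted p = 0.431). Col16a1 was at 163, 227, 316 and 263 CPM, again without overlap (log2 difference 0.60, edgeR adjusted p = 0.492). Col12a1, the most counted of the FACIT genes here, was at 746, 781, 708 and 766 CPM and its groups overlapped. Col20a1 stayed between 6.86 and 15.4 CPM.

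Of the beaded filament collagens, which form the type VI microfibrils around cells, the 2 main chains overlapped between groups. Col6a2 was at 763, 743, 866 and 750 CPM. Col6a1 was at 117, 127, 128 and 83.8 CPM, lowest in injected 2. Col6a5, a chain of low abundance, was at 5.61, 9.77, 19.5 and 10.7 CPM (log2 difference 0.998 ± 0.37, edgeR unadjusted p = 0.0323, adjusted p = 0.452), with the highest value in injected 1. Col6a6 was at 5.57 to 8.02 CPM, with both injected libraries above both uninjected ones and no call. Among the network collagens, Col8a1 was at 134, 112, 145 and 210 CPM, again higher in both injected libraries and again without a call (log2 difference 0.52, edgeR adjusted p = 0.583).

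Basement membrane collagens were 0.068, 0.045, 0.061 and 0.056% of fibroblast UMIs, with no direction that held when single libraries were left out. Col4a1, a main chain of type IV collagen, was at 334, 249, 418 and 357 CPM, and its partner Col4a2 at 20.0, 25.4, 37.9 and 30.1 CPM. For both genes the injected libraries lay above the uninjected ones, with log2 differences of 0.40 (edgeR adjusted p = 0.718) and 0.61 ± 0.23 (edgeR unadjusted p = 0.0323, adjusted p = 0.452). Col18a1, whose C-terminal fragment is endostatin, was at 40.5, 41.2, 31.2 and 30.5 CPM, lower in both injected libraries (log2 difference -0.39, edgeR adjusted p = 0.567). Col15a1 was at 217 CPM in uninjected 1 and at 90.1 to 93.1 CPM in the other 3 libraries, so its log2 difference of -0.79 came with 1 high control. Col7a1 was at 44.4, 34.6, 18.8 and 34.8 CPM. Without a small cluster of 96 fibroblasts, described further on, it was at 17.9, 24.5, 18.3 and 31.4 CPM, so that the group with the higher mean changed, with no call either way.

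**Figure D2:**
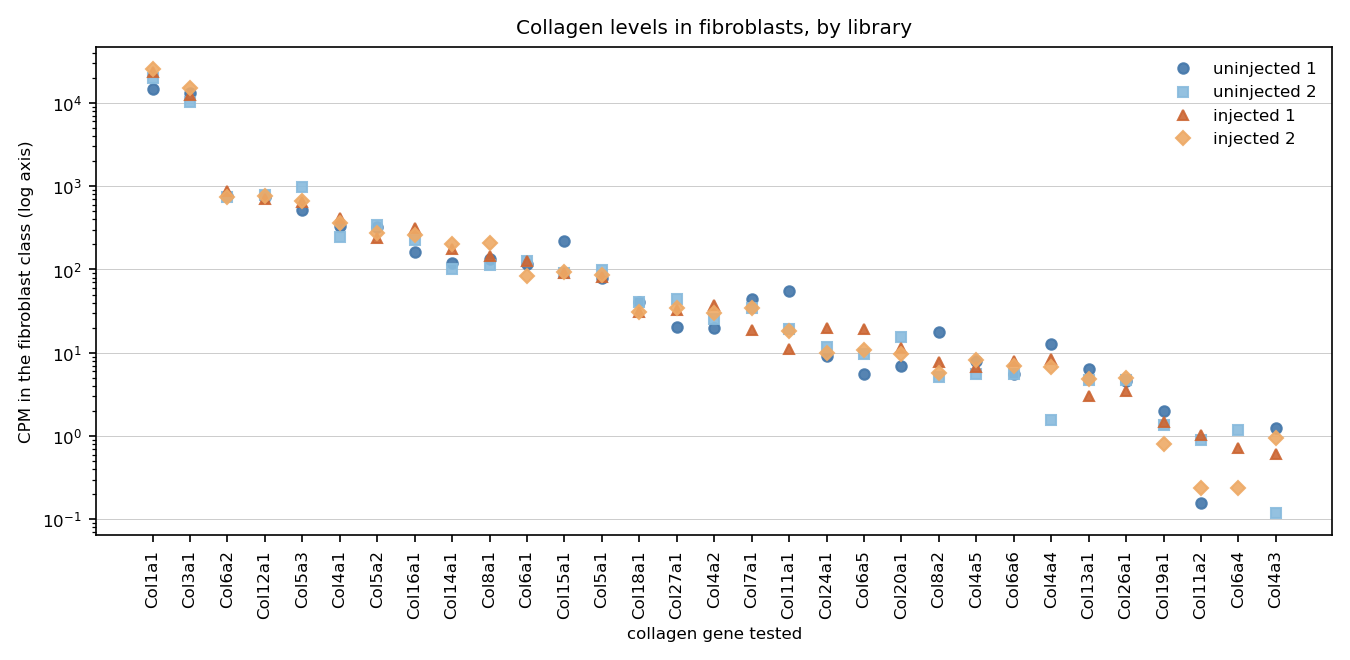
CPM on a log axis in the fibroblast class for each of the 31 collagen genes tested, 1 point per library. For Col1a1 and Col14a1 both injected points lie above both uninjected ones, and Col15a1, Col11a1 and Col8a2 have 1 high point, that of uninjected 1.

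Collagen-modifying genes were read from a list of 33 processing genes (hydroxylases, chaperones, propeptide proteases and crosslinking enzymes), of which 30 were in the files, and a list of 10 collagen receptors. In fibroblasts 0 of 30 processing genes and 0 of 8 receptors tested passed the edgeR threshold for injected over uninjected. Of the 30 processing genes 22 were positive, with a median log2 difference of 0.23, against 50.1% positive and 0.00 over all genes. At an unadjusted p under 0.05 in edgeR there were 4 of the 30 and 2 of the 8, against 1369 of all 13247 genes tested. The edgeR adjusted p-values of those 6 list genes ran from 0.395 to 0.457. The largest differences were those of Tll1, a propeptide protease (55.3, 95.4, 279 and 93.9 CPM, log2 difference 1.35), and P3h3, a prolyl 3-hydroxylase (98.4, 162, 308 and 186 CPM, log2 difference 0.96). P4ha3, a prolyl 4-hydroxylase subunit, and Plod2, the lysyl hydroxylase of the telopeptides, had lower values in both injected libraries (log2 differences -0.74 and -0.73). Among receptors the largest differences were those of the integrin chains Itga10 (-1.59), Itga2 (0.83), Itga11 (0.52) and Itga1 (0.27).

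In keratinocytes, 0 of 33 collagen genes tested passed the edgeR threshold for injected over uninjected, as did 0 of all 14531 genes (0%), with 3 and 673 at an unadjusted p under 0.05. DESeq2 called 0 of the 33 as well. The median log2 difference of the 33 genes was 0.24 with 22 positive, against 0.01 over all genes with 50.7% positive. Several of the best counted genes were highest in injected 1, and injected 2 lay close to the controls. Col4a1 was at 73.8, 92.7, 198 and 95.8 CPM, Col18a1 at 183, 227, 276 and 171 CPM, and Col7a1, the anchoring fibril collagen, at 72.5, 93.6, 114 and 82.5 CPM. The FACIT genes Col12a1 (54.0, 59.4, 98.4 and 56.1 CPM) and Col16a1 (26.5, 41.9, 72.9 and 44.1 CPM) had the same order at the top. The basement membrane share of keratinocyte UMIs was accordingly higher in the injected mean by 0.36 on the log2 scale (exact permutation p = 0.667, 2 against 2 libraries), and by -0.06 without injected 1.

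Among the keratinocyte genes with the smallest unadjusted p-values was 1 fibrillar transcript, Col3a1. Col3a1 was at 11.4, 16.5, 22.04 and 24.4 CPM (log2 difference 0.58, edgeR unadjusted p = 0.0241, adjusted p = 0.818) and Col1a1 at 12.8, 37.0, 44.8 and 46.6 CPM. For both, the upper bound of free RNA reached 100% of the keratinocyte level in all 4 libraries. Whether these UMIs came from the cells or from free RNA was not tested. Without uninjected 2, Col1a1 was the 1 collagen gene called in keratinocytes (log2 difference 1.57, edgeR adjusted p = 0.0157). Col19a1 (1.497, 0.63, 0.40 and 0.43 CPM) and Col6a5 (0.11, 0.19, 0.33 and 2.89 CPM) were the other 2 under an unadjusted p of 0.05, and the Col6a5 difference was that of injected 2 alone. Of the processing list 0 of 28 tested and of the receptors 0 of 8 passed, the largest differences being those of Adamts14 (-1.08), Pcolce (1.01), P4ha3 (-0.76) and P3h3 (0.76) and of the receptors Itga10 (-0.74), Itga1 (-0.57), Ddr1 (0.37) and Itga11 (-0.35). At an unadjusted p under 0.05 in edgeR there were 4 of the 28 and 0 of the 8, against 673 of all 14531 genes tested. The other 8 collagen genes had 1 to 35 keratinocyte UMIs and were not tested.

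Endothelial cells gave 9 collagen genes for testing, and 0 passed in edgeR against 0.0165% of 6076 genes (1 gene). DESeq2 called 0 too, and 535 genes and 1 collagen gene had an unadjusted p under 0.05. That gene was Col8a1, a network collagen of vessel walls, at 33.8 and 52.6 CPM in the uninjected and 14.5 and 5.25 CPM in the injected libraries. The groups did not overlap, on 88 UMIs in all (log2 difference -1.87 ± 0.49, edgeR adjusted p = 0.455), and with no filter on low counts the gene was called at an adjusted p of 0.0394. Col4a1 at 1806, 2058, 2735 and 2028 CPM, Col15a1 at 810, 686, 853 and 740 CPM and Col12a1 at 201, 312, 263 and 291 CPM overlapped between groups. Col18a1 was at 885 and 1212 CPM against 652 and 750 CPM (log2 difference -0.62, edgeR adjusted p = 0.593), and Col4a2 at 123 and 137 CPM against 284 and 173 CPM (log2 difference 0.78, edgeR adjusted p = 0.571). The transmembrane collagen Col13a1, at 102, 47.0, 13.5 and 81.3 CPM, came from 11 of 45, 8 of 38, 13 of 134 and 5 of 31 cells, and was called without uninjected 2 (log2 difference -1.60, edgeR adjusted p = 0.0037). None of 16 processing genes or 3 receptors tested passed, the largest differences being those of P3h4 (1.16) and Serpinh1, the collagen chaperone Hsp47 (351, 412, 930 and 753 CPM, log2 difference 1.10), then P3h3 (0.65) and P4hb (0.64). At an unadjusted p under 0.05 in edgeR there were 2 of the 16 and 0 of the 3, against 535 of all 6076 genes tested. The other 32 collagen genes had 0 to 73 endothelial UMIs and were not tested.

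Mural cells were not tested for injection, since injected 2 held 8 of them. Their fibrillar collagens were 0.420 and 0.444% of UMIs in the uninjected and 0.753 and 0.707% in the injected libraries. Col1a1 in mural cells was at 1581, 2673, 4642 and 4880 CPM, and Col6a2 at 875, 1035, 1486 and 1390 CPM, so that neither gene's groups overlapped. The share of mural cells with the gene did not follow, at 80.0, 100, 91.4 and 62.5% for Col1a1. For Col6a2 it was 70.9, 85.0, 86.2 and 62.5%, so both shares were lowest among the 8 cells of injected 2. Col5a3 (304, 576, 694 and 661 CPM) was also higher in both injected libraries. Col3a1 (2067, 932, 1896 and 1409 CPM), Col4a1 (1836, 2642, 2783 and 1740 CPM) and Col12a1 (378, 459, 389 and 185 CPM) overlapped. Col18a1 (1154, 1787, 1146 and 778 CPM) was lower in both injected libraries. The fibroblast marker list in this class, 1137 to 1621 CPM, had 3 to 7 of 14 genes at 0, and a skeletal muscle list summed to 2158 to 4244 CPM with 7 to 10 of 12 genes at 0, against 3383 to 4649 CPM and 0 of 12 for the mural list. The part of other cells' RNA in these values was not tested.

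Set against fibroblasts within the same libraries, keratinocytes differed at all 27 collagen genes tested in edgeR, where 60.6% of all genes did, 27.3% as higher and 33.3% as lower. In this and the following comparisons of classes, a gene could pass the filter on low counts through the class where it is high, and such a gene had to differ, so the counts describe the genes tested and support nothing further. The 4 higher genes all belonged to the epidermal basement membrane or to Col26a1. Col18a1 was higher by 2.57 on the log2 scale, Col4a5 by 1.77, Col7a1 by 1.48 and Col26a1, a collagen of little known function, by 0.98, the last not called by DESeq2 (adjusted p = 0.0593). Col4a5 was at 22.2 to 30.5 CPM in keratinocytes and 5.51 to 8.23 CPM in fibroblasts. The other 23 were lower, among them Col3a1 (-9.50), Col1a1 (-9.39), Col6a2 (-8.73), Col6a1 (-8.61), Col8a1 (-8.05), Col11a1 (-7.82), Col15a1 (-7.03) and Col14a1 (-5.81). Col5a1, Col5a3, Col6a5, Col6a6 and Col5a2 lay between -5.45 and -4.32, Col24a1, Col27a1, Col4a4, Col12a1 and Col13a1 between -3.74 and -3.04, and Col16a1, Col4a1, Col8a2, Col20a1 and Col4a2 between -2.45 and -0.76. Keratinocyte Col1a1, Col3a1, Col6a2 and Col8a1 had a free RNA bound of 100% in all 4 libraries, so their differences describe the counted UMIs and may not give the level of the cells.

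Endothelial cells differed from fibroblasts at 25 of 27 collagen genes in edgeR (43.8% of all genes). Only 9 of these 27 also passed the filter within endothelial cells alone, and the others entered through their fibroblast level. The 5 higher ones were the vascular basement membrane genes Col18a1 (4.27), Col15a1 (2.45), Col4a1 (2.33) and Col4a2 (2.30) and the transmembrane Col13a1 (3.12). Fibrillar genes were among the 20 lower ones, Col3a1 by -10.08, Col1a1 by -9.65, Col5a3 by -7.20 and Col5a2 by -6.47. So were Col6a2 (-8.84), Col16a1 (-5.16), Col7a1 (-4.01), Col24a1 (-3.50), Col8a1 (-2.93), Col12a1 (-1.84) and Col8a2 (-1.58). Free RNA could give 79.5 to 100% of endothelial Col1a1 and 63.7 to 100% of endothelial Col3a1. A further 7 lower genes had 1 to 3 endothelial UMIs, and for these the ratio of pooled levels, fibroblast over endothelial, is given with its 95% exact interval for counting error. It was 508 (91.1 to 20057) for Col6a1, 333 (92.1 to 2749) for Col14a1 and 126 (43.1 to 612) for Col5a1. It was 15.0 (4.12 to 124) for Col4a5, 9.80 (3.33 to 47.7) for Col6a6, 9.35 (3.17 to 45.6) for Col4a4 and 9.38 (2.57 to 77.9) for Col26a1, so the intervals of these 4 reach down to a few fold. Col11a1 and Col6a5 had 0 UMIs in all endothelial cells, at least 29.5-fold and 18.8-fold lower than in fibroblasts when 3 UMIs over the class are taken as the floor. Col20a1 (-0.71) and Col27a1 (-0.59) did not pass, but Col20a1 did without uninjected 1 (-1.13, edgeR adjusted p = 0.0194) and Col27a1 without injected 1 (-1.07, 0.0373). Col24a1 was not called without injected 1 (edgeR adjusted p = 0.0952), and Col8a2 not without uninjected 1 (0.204) or injected 1 (0.109).

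Mural cells, compared in the 3 libraries with at least 20 of them, differed from fibroblasts at 15 of 21 collagen genes in edgeR (25.6% of all genes). The 5 higher genes were all of the basement membrane: Col18a1 (5.05), Col4a4 (3.58), Col4a5 (2.96), Col4a2 (2.92) and Col4a1 (2.76). The 10 lower ones were Col11a1 (1 mural UMI, a fibroblast over mural ratio of 29.7 with an interval of 5.33 to 1176), Col14a1 (-4.09), Col16a1 (-3.34), Col3a1 (-3.00), Col1a1 (-2.91), Col15a1 (-2.79), Col8a1 (-2.20), Col27a1 (-2.05), Col5a1 (-1.06) and Col12a1 (-0.97). Col15a1 had 0, 0 and 35 mural UMIs in uninjected 1, uninjected 2 and injected 1, and Col27a1 had 2, 1 and 11. Type VI collagen did not follow the fibrillar genes, with Col6a2 at 0.40 and Col6a1 at 0.60 and neither called. Calls for Col8a1, Col15a1, Col5a1 and Col27a1 were lost without uninjected 1 (edgeR adjusted p = 0.124, 0.0810, 0.100 and 0.0779), and that of Col5a1 without uninjected 2 (0.135). Without injected 1, Col5a3 was called lower too (-0.81, edgeR adjusted p = 0.0142).

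In both vessel cell types Col4a1 had the most UMIs of the basement membrane genes, followed in mural cells by Col18a1 and Col4a2. In endothelial cells Col15a1 and Col18a1 came next, in an order that changed between libraries. Col15a1 was at 810, 686, 853 and 740 CPM and Col18a1 at 885, 1212, 652 and 750 CPM. Such a ranking of genes describes the counts, which also depend on gene length and capture. Mural over endothelial cells differed at 16 of 21 genes in edgeR (26.8% of all genes), 14 higher and 2 lower. Higher in mural cells were Col6a2 (9.10), Col3a1 (7.05), Col5a3 (6.96), Col1a1 (6.67), Col5a2 (5.69), Col7a1 (3.66), Col16a1 (1.86), Col12a1 (0.84) and Col18a1 (0.77). Higher on 1 to 3 endothelial UMIs were Col6a1, with a ratio of 839 (149 to 33250), Col4a5 (116, 31.0 to 971), Col4a4 (107, 35.7 to 526), Col5a1 (90.6, 24.1 to 764) and Col14a1 (36.2, 5.44 to 1540). Lower were Col15a1 (-5.12) and, on 1 mural UMI, Col13a1 (endothelial over mural ratio 38.7, 6.81 to 1544). The mural UMIs of Col15a1 in the 3 libraries compared, 35 in all, came from injected 1. Col4a1 (0.33), Col4a2 (0.51), Col8a1 (0.30) and Col27a1 (-1.57) did not pass. Without injected 1 the value of Col8a1 turned to -2.35 and passed (edgeR adjusted p = 0.0191), as did Col4a2 (0.87, 0.0439), and Col27a1 passed without uninjected 2 (-1.73, 0.0159). The calls of Col18a1, Col12a1 and Col16a1 were lost when uninjected 2 or injected 1 (edgeR adjusted p = 0.0589 and 0.0561), uninjected 1 (0.0511), and uninjected 1 or injected 1 (0.157 and 0.526) were left out.

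Skeletal muscle-like cells were low in collagen RNA, at 0.050, 0.096, 0.050 and 0.033% of UMIs. In the same 3 libraries 19 of 21 genes were lower than in fibroblasts in edgeR (41.5% of all genes differed, 24.8% as lower). The genes best counted in them were the type V chains Col5a3 (128, 253, 108 and 79.6 CPM) and Col5a2 (68.8, 222, 58.1 and 31.8 CPM). Col1a1 (-9.54), Col3a1 (-7.59), Col16a1 (-7.24), Col6a2 (-5.45), Col12a1 (-5.30) and Col4a1 (-5.06) were the lowest of those with more than 3 muscle UMIs. Col15a1 had 0 UMIs and was at least 99.5-fold lower at the floor of 3 UMIs over the class. On 1 or 2 UMIs, the fibroblast over muscle ratio was 356 (63.8 to 14050) for Col8a1, 188 (52.1 to 1556) for Col14a1, 11.4 (2.02 to 453) for Col13a1 and 8.67 (2.38 to 72.0) for Col4a4. Col6a1, Col4a2, Col5a1, Col5a3, Col4a5, Col5a2, Col27a1 and Col11a1 were lower by -4.19 to -0.97. Of these, Col27a1, Col11a1, Col4a5, Col4a4 and Col13a1 lost their call when 1 of the 3 libraries was left out, at edgeR adjusted p-values of 0.0576 to 0.372. Col7a1 (-0.24) and Col18a1 (0.37) did not pass.

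The type IV genes differed in level between classes, pair by pair. Col4a1 was at 1836, 2642, 2783 and 1740 CPM in mural cells, close to its endothelial level, and at 73.8 to 198 CPM in keratinocytes. Its head-to-head partner Col4a2 kept a similar proportion in 3 classes. Pooled over libraries, Col4a2 UMIs per Col4a1 UMI were 0.0883 in fibroblasts, 0.0963 in endothelial cells, 0.0896 in mural cells and 0.159 in keratinocytes, given as a description with no test. In neutrophils the ratio was 0.657, on 90 and 137 UMIs, of which empty-droplet RNA could give at most 14.1% for Col4a2 and 58.9% for Col4a1 in any library.

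The second pair, Col4a3 and Col4a4, was found in mural cells for 1 gene only at a usable count. Col4a4 was at 91.4, 85.5, 72.3 and 97.2 CPM in mural cells, in 23 of 55, 10 of 20, 21 of 58 and 3 of 8 cells, against 1.54 to 12.6 CPM in fibroblasts and 0.33 to 0.68 CPM in keratinocytes. Col4a3, its partner in the chain mixture of kidney basement membrane, had 10 mural UMIs in all (4.25, 13.5, 5.45 and 9.72 CPM). In the third pair, Col4a5 was at 85.0, 49.5, 43.6 and 29.2 CPM in mural cells and 22.2 to 30.5 CPM in keratinocytes. Col4a6, which pairs with the Col4a5 chain in epidermal basement membrane, gave 388 of its 397 UMIs in keratinocytes (1.17, 2.02, 3.84 and 1.75 CPM) and 6 in fibroblasts.

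**Figure D3:**
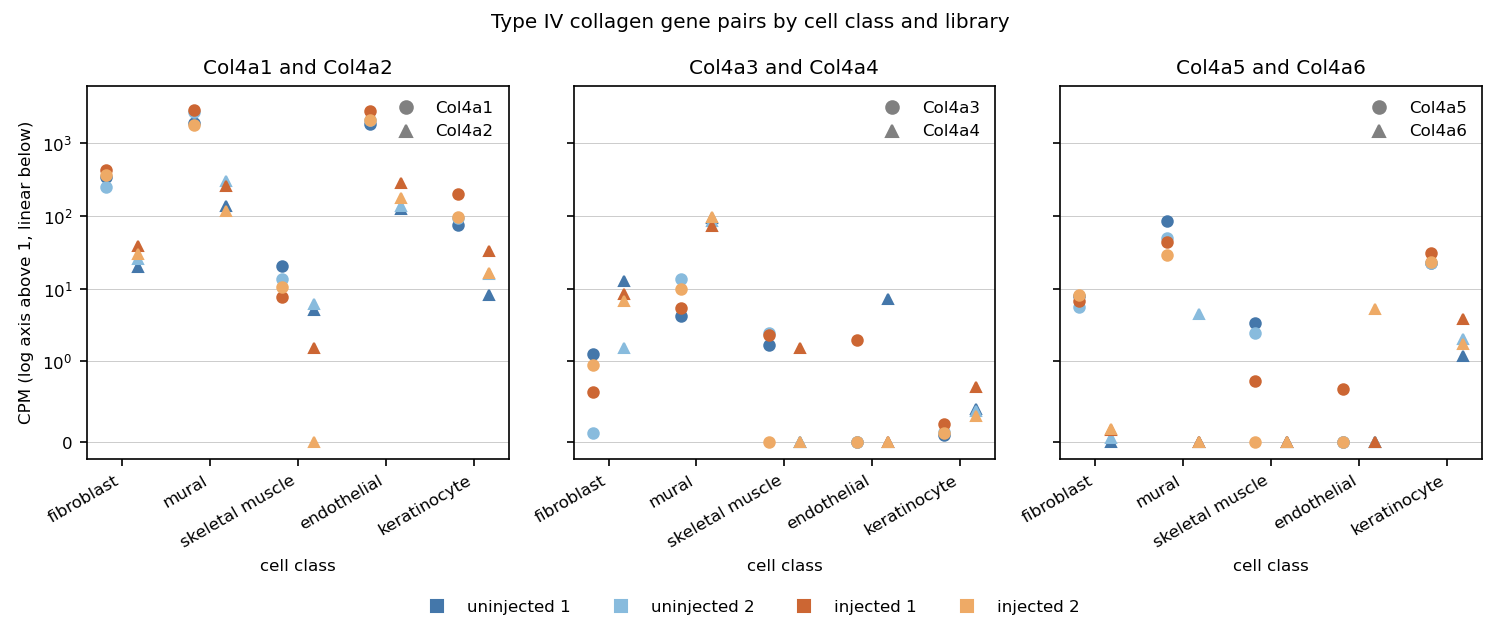
Levels of the 3 type IV gene pairs in 5 cell classes, 1 point per library and gene, in CPM on an axis that is logarithmic above 1 and linear below. Circles are the first gene of a pair and triangles the second, and Col4a4 stands at 72.3 to 97.2 CPM in mural cells against at most 12.6 CPM in fibroblasts.

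Most processing genes tested were lower in the other classes than in fibroblasts, by edgeR at an adjusted p under 0.05. In keratinocytes 25 of 27 were lower and 2 higher, where 33.3% of all genes were lower and 27.3% higher. In endothelial cells 25 were lower and 1 higher (25% and 18.8% of all genes), and in mural cells 17 were lower and 1 higher (14% and 11.6%). In skeletal muscle-like cells 24 were lower, where 24.8% of all genes were. In keratinocytes the lowest were the crosslinking enzyme Lox (-8.78), the enhancer of propeptide cleavage Pcolce (-8.63), Fkbp10 (-7.28) and Loxl1 (-7.25), followed by Sparc, Fkbp14, P3h3, Adamts2, P3h1, Loxl2, Serpinh1, Adamts14, Creb3l1, P3h4, P4ha3, Plod2, P4ha2, Colgalt1, Plod3, Plod1, P4hb, Bmp1, Ppib, Tll1 and P4ha1 (-6.96 to -1.05). The 2 higher in keratinocytes were P3h2, the prolyl 3-hydroxylase that acts on type IV collagen (3.32), and the propeptide protease Adamts3 (1.65). P3h2 was also the 1 gene higher in mural cells (2.72), and Tll1 the 1 gene higher in endothelial cells (3.12). The same 25 genes, with Adamts3 in place of Tll1, were lower in endothelial cells, from Loxl1 with 0 UMIs (at least 191-fold lower) to Ppib (-0.92). Of the rest, 9 genes did not pass in mural cells, among them Adamts3, Loxl2, Creb3l1 and Sparc, and Plod2, Adamts14 and P3h2 did not pass in skeletal muscle-like cells.

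Receptors divided by class. Ddr1 (4.07) and Itga2 (2.95), the collagen receptors of epithelia, were higher in keratinocytes, and Ddr2 (-7.70), Itga11 (-5.04) and Mrc2 (-1.20) were lower. In endothelial cells Itga1 was higher (2.32), Ddr2 (-4.36), Mrc2 (-2.05) and Ddr1 (-1.84) were lower, and Itga11 had 0 UMIs (at least 17.1-fold lower). In mural cells Itga1 (2.18), Ddr1 (1.57) and Itgb1 (0.82) were higher and Mrc2 lower (-3.40), and in skeletal muscle-like cells Ddr1 was higher (3.67) and Itga2, Ddr2, Itga1, Mrc2 and Itgb1 lower (-4.89 to -1.45). Mural cells compared with endothelial cells were higher at 18 of 27 processing genes (15.8% of all genes were higher), among them Loxl1 (0 endothelial UMIs, at least 53.0-fold higher), Adamts2 (1 endothelial UMI, ratio 295 with an interval of 51.9 to 11780), Pcolce (7.49) and Loxl2 (6.37), and lower at Tll1 (-6.88), with Ddr2, Ddr1 and Itgb1 higher among the receptors. The other 14 higher processing genes were Adamts14 (3 endothelial UMIs, ratio 37.2, 11.8 to 188) and P4ha3, Lox, Plod2, Bmp1, P3h1, P3h2, Creb3l1, P3h4, P3h3, Fkbp10, Sparc, Serpinh1 and P4ha1 (4.14 to 0.77).

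Within keratinocytes, basal and suprabasal cells were compared, using layer markers with no collagen among them. Of 21 collagen genes 13 were higher and 1 lower in basal cells in edgeR, where 52.7% of all genes differed and 24.9% were higher. The median log2 difference was 1.47, against -0.02 over all genes. Col4a1 was at 137, 154, 314 and 179 CPM in basal and 12.9, 8.57, 9.47 and 6.18 CPM in suprabasal cells, the widest gap of the 21 (4.14 ± 0.20, edgeR adjusted p = 2.29e-08). Col4a2 (3.63), Col4a6 (2.81), Col7a1 (2.24), Col4a5 (1.73) and Col18a1 (1.20), all of the basement membrane, were higher too. Col7a1 was at 108, 138, 150 and 134 CPM in basal against 22.6, 25.5, 29.6 and 24.5 CPM in suprabasal cells. Every basal value lay above every suprabasal value for both genes.

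The FACIT genes Col16a1 (3.32) and Col12a1 (2.94) had basal differences of the same order. Col12a1 was at 93.2, 94.7, 145 and 98.4 CPM in basal and 15.9, 8.37, 17.8 and 9.95 CPM in suprabasal cells. Col5a2 (1.86), Col5a1 (1.82), Col8a2 (1.66), Col27a1 (1.47) and Col14a1 (0.95) made up the rest of the higher genes. Col14a1 was not called among cells of 8000 to 30000 UMIs (0.17, edgeR adjusted p = 0.704). Col26a1 went the other way, at 5.05, 7.25, 4.27 and 7.13 CPM in basal and 21.5, 9.98, 5.08 and 21.05 CPM in suprabasal cells (-1.33 ± 0.25, edgeR adjusted p = 0.00107). Col1a1 (0.21, edgeR adjusted p = 0.0729) and Col3a1 (0.18), whose free RNA bound in this class was 100%, did not pass, though Col1a1 did without injected 1 (0.27, edgeR adjusted p = 0.0485). Col5a3 (-0.36) passed as lower without injected 1 (-0.48, edgeR adjusted p = 0.0371) or injected 2 (-0.53, 0.0199), Col6a2 (0.73) as higher without injected 2 (1.25, 0.0213), and Col20a1 (0.35) without uninjected 1 (0.59, 0.0272). Suprabasal cells were deeper, with median UMIs of 20557.5 to 25353 against 11009 to 15592.

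Processing genes were mostly higher in basal cells, 18 of 28, with 4 lower, where 24.9% of all genes were higher and 27.8% lower. Higher were Adamts3 (2.92), Loxl2 (2.60), Tll1 (2.52), Sparc (2.25), P3h3, Plod3, Loxl1, P3h1, Lox, Plod2, P4ha1, Bmp1, Serpinh1, Loxl4, Plod1, Colgalt1, P4ha2 and Creb3l1 (2.07 to 0.53), and lower were Adamts14 (-2.08), Fkbp10, P3h4 and P4hb (-0.64 to -0.51). Of 6 receptors Itga2 (3.06), Itga1 (1.84), Itgb1 (1.21) and Mrc2 (0.31) were higher and none lower, by edgeR at an adjusted p under 0.05.

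**Figure D4:**
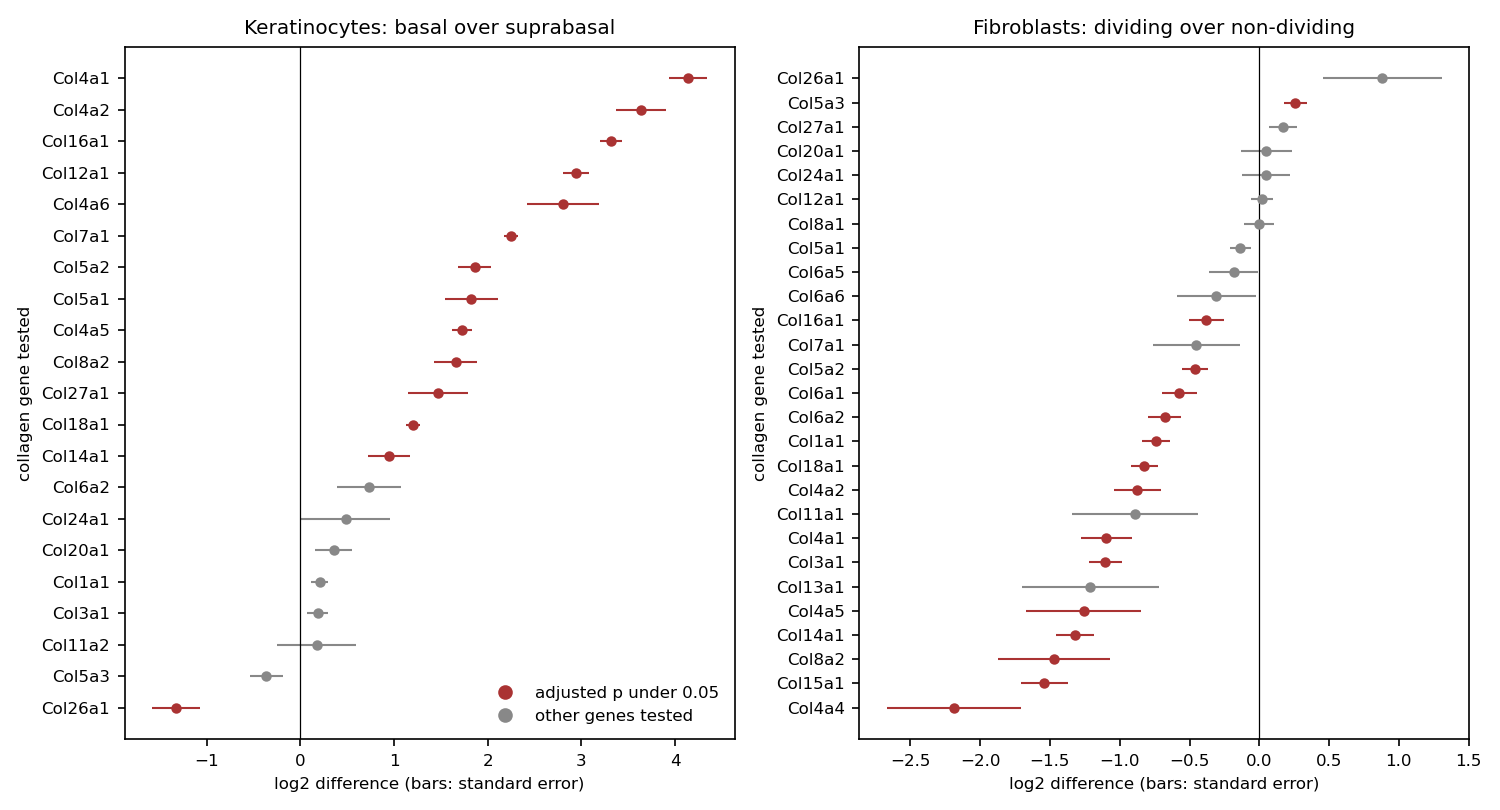
Log2 differences of collagen genes between basal and suprabasal keratinocytes (left) and between dividing and non-dividing fibroblasts (right), with standard errors. Red points passed an edgeR adjusted p of 0.05, 14 of 21 on the left and 15 of 27 on the right, and most red points lie right of 0 on the left panel and left of 0 on the right panel.

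Dividing fibroblasts, taken as cells with at least 3 division genes detected, were compared with fibroblasts that had 0. They had lower levels of 14 of 27 collagen genes and a higher level of 1 in edgeR, where 32.7% of all genes differed and 16.7% were lower. The median log2 difference was -0.57, against -0.01 over all genes. Col1a1 was at 10755, 16227, 17479 and 20940 CPM in dividing and 18946, 26773, 27226 and 29781 CPM in non-dividing cells (-0.74 ± 0.10, edgeR adjusted p = 0.000662). Col3a1 was at 7122, 7590, 7719 and 11862 against 18700, 15669, 15839 and 18686 CPM (-1.10 ± 0.12, edgeR adjusted p = 0.000187). In each of the 4 libraries the dividing cells had the lower value for both genes.

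The basement membrane genes Col4a4 (-2.19), Col15a1 (-1.54), Col4a5 (-1.26), Col4a1 (-1.10), Col4a2 (-0.87) and Col18a1 (-0.82), the FACIT genes Col14a1 (-1.32) and Col16a1 (-0.38), and Col8a2 (-1.47), Col6a2 (-0.68), Col6a1 (-0.57) and Col5a2 (-0.46) were lower as well. Col14a1 was at 54.4, 67.3, 96.0 and 158 CPM in dividing and 185, 168, 243 and 253 CPM in non-dividing cells. Col12a1 (0.02 ± 0.08) and Col8a1 (-0.00 ± 0.11) did not pass, with differences near 0 and small errors, and Col5a3 was higher by 0.26. The Col5a3 call was lost without uninjected 2, injected 1 or injected 2 (edgeR adjusted p = 0.0641, 0.122 and 0.122) and without a small fibroblast cluster described further on (0.0905). Calls of Col16a1, Col8a2, Col4a5 and Col4a4, the last on few UMIs, were also lost without 1 or more libraries, at edgeR adjusted p-values of 0.0512 to 0.204. Those of Col16a1 (0.0529) and Col4a5 (0.0650) were lost without the small cluster as well. Col7a1 (-0.45, not called) turned to 0.47 without the small cluster and was then called higher (edgeR adjusted p = 0.0256). Without injected 2, Col11a1 (-1.57), Col13a1 (-1.82) and Col26a1 (1.39) were called in addition. Dividing cells were deeper, with median UMIs of 29627.5 to 35418 against 12671 to 22548.5. Within 8000 to 30000 UMIs, Col5a2 (-0.28, edgeR adjusted p = 0.0759), Col18a1 (-0.49, 0.0586) and Col16a1 (-0.39, 0.118) were no longer called.

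Of the processing list 8 of 30 genes were lower in dividing fibroblasts and 2 higher, where 16.7% of all genes were lower and 16% higher. Lower were Adamts2 (-1.09), Tll1 (-0.85), Sparc (-0.75), Loxl1 (-0.70), Pcolce (-0.66), Bmp1 (-0.57), Adamts3 (-0.56) and P3h3 (-0.41). Higher were P3h2 (0.88) and Plod2 (0.74). The chaperone Serpinh1 (-0.09) and the hydroxylase subunits P4ha1 (0.20) and P4hb (-0.13) did not pass. Of 7 receptors Itga11 (-1.83) and Ddr2 (-0.26) were lower in edgeR.

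A cluster of 96 of the 2353 fibroblasts, found by clustering without collagen genes, held 35, 35, 8 and 18 cells, which is 9.94, 5.75, 0.977 and 3.14% of the class. Its values are a description with no test. Igfbp2, Cilp, Mmp3, Cyp26b1 and Cyp4b1 led it, and Mgp, Il33, Sfrp2, Postn and Fn1 were low in it. Pooled over libraries, Col13a1 was at 72.1 CPM in these cells against 2.83 CPM in the other fibroblasts, Col7a1 at 349 against 23.1 CPM, Col15a1 at 749 against 91.4 CPM and Col18a1 at 111 against 33.5 CPM, each higher in the cluster in all 4 libraries. Col1a1 was at 39757 against 21368 CPM and Col3a1 at 26379 against 12097 CPM, while Col12a1 (421 against 755 CPM) and Col5a3 (258 against 743 CPM) were lower in all 4. Col11a1, Col24a1 and Col6a6 had 0 UMIs in it. Without these cells the injected over uninjected test in fibroblasts still called 0 collagen genes.

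The balance of type III to type I RNA set 1 library apart in the classes where that library had enough counts. Col3a1 UMIs per Col1a1 UMI were 0.886 in the fibroblasts of uninjected 1, against 0.518, 0.525 and 0.595 in the other libraries. The same library had the highest ratio in mural cells (1.31 against 0.348, 0.408 and 0.289), in keratinocytes (0.888 against 0.446 to 0.524) and in neutrophils (1.12 against 0.415 to 0.495). The free RNA bound of both genes was 100% in keratinocytes. In neutrophils it was 87.2 to 100% for Col1a1 and 85.9 to 100% for Col3a1. Whether the ratios of these 2 classes are those of the cells or of free RNA was not tested. Skeletal muscle-like and endothelial cells had too few counts in uninjected 1. In uninjected 2 and injected 1 their ratios were 2.07 and 1.2 for skeletal muscle-like and 0.115 and 0.544 for endothelial cells. In empty droplets, which hold free RNA, the ratio was 0.851 against 0.434 to 0.491. The 2 uninjected libraries therefore differed from each other in this ratio by more than uninjected 2 differed from either injected library, in fibroblasts, keratinocytes and empty droplets.

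**Figure D5:**
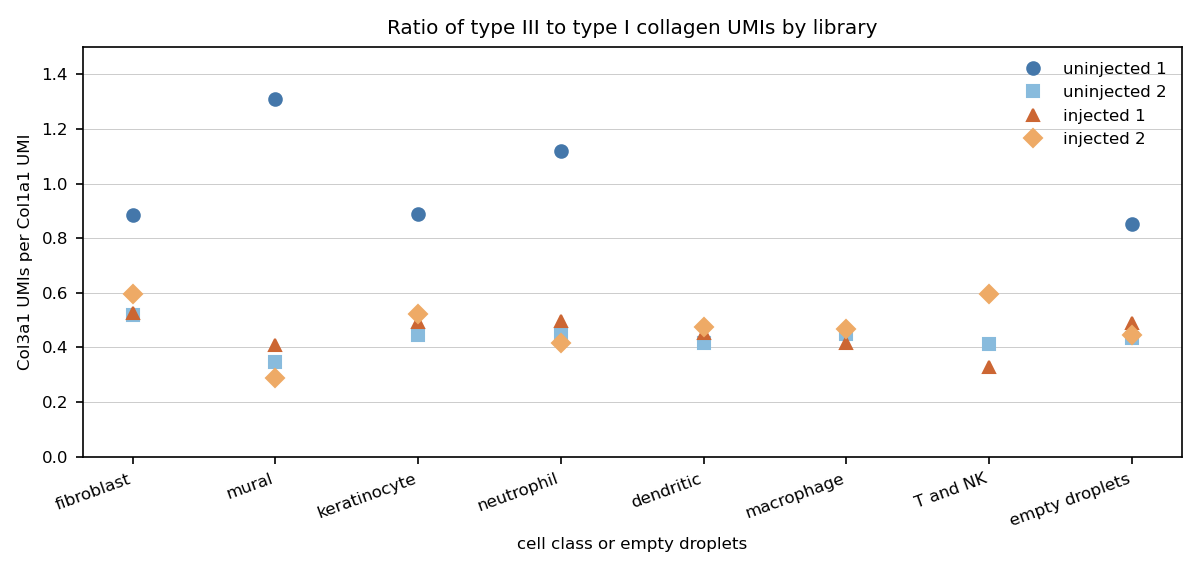
Col3a1 UMIs per Col1a1 UMI in 7 cell classes and in empty droplets, 1 point per library, with no point where the counts were too few. Uninjected 1 stands at 0.851 to 1.31 wherever it has a point, and the other libraries stand at 0.289 to 0.596 in the classes shown. Skeletal muscle-like cells (2.07 in uninjected 2 and 1.2 in injected 1) and endothelial cells (0.115 and 0.544) are not shown.

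Immune cells held few collagen UMIs. For Col1a1 the free RNA bound was 98.4 to 100% of the level in dendritic-like cells. In T and NK-like cells it was 88.9, 99.8, 52.6 and 99.2%, the lowest on the 192 UMIs of injected 1. Col8a2, a network collagen known from the cornea, was at 60.8, 67.9, 43.4 and 50.2 CPM in dendritic-like cells and 32.4, 110, 17.7 and 44.8 CPM in T and NK-like cells, against 5.15 to 17.6 CPM in fibroblasts and 2.70 to 3.41 CPM in keratinocytes. Empty-droplet RNA could give at most 0.3% of it in the dendritic class of any library. Col6a5 in T and NK-like cells was at 40.8 CPM in injected 2 (30 UMIs, in 26 of 124 cells) and at 0.00, 3.2 and 3.4 CPM in the other 3 libraries. The same library had 35 Col6a5 UMIs in dendritic-like, 19 in macrophage-like and 12 in neutrophil-like cells, against at most 5 in any of these classes in another library. In mural cells of injected 2, 13 UMIs of Col19a1 came from 1 cell.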

How the data were processed

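The deposited files hold whole-number UMI counts per gene and barcode, empty droplets included. Cell Ranger 7.2.0 produced the counts, per the file headers, whereas version 5.0.1 stands in the submitters' processing notes. For the counts, a genome build is not given in the sources used here. Coordinates entered no test.

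Cells were called per library by an emptyDrops-like test (500 or more UMIs, false discovery rate 0.01), and kept with at least 250 genes and at most 20% mitochondrial UMIs. The highest Scrublet scores (scanpy 1.11.5), 0.8% per 1000 cells, were removed as doublets. A cell joined a class when at least 3 of its markers were seen above the free RNA expected and by 1.5 times more than any other class. Of 33789 kept cells, 9333 joined no class and 560 were mixed. Of the classed cells, 52 of 2353 fibroblasts, 354 of 11650 keratinocytes, 14 of 248 endothelial and 11 of 141 mural cells had the fewest markers allowed. UMIs were summed per class and library, and tested with edgeR 4.0.16 in R 4.3.3 (quasi-likelihood, TMM, filterByExpr, Benjamini-Hochberg over all genes tested). Within-library comparisons had the library as a block. The script was tested on simulated data. CPM are UMIs per 1000000 UMIs of the class before TMM scaling, and depend on gene length and capture, so they are compared between classes and libraries and not between genes. The free RNA bound of a gene is its level in empty droplets times the largest free RNA share its class could hold, at most 100%.

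Collagen genes past an adjusted p of 0.05 were named, otherwise those with most UMIs per role or an unadjusted p under 0.05, and of the processing and receptor lists the genes past 0.05 and the 4 largest differences. Genes, lists and markers were chosen with earlier results of these data known. Levels in the small cluster and immune classes were singled out after their values were seen. Mural and skeletal muscle comparisons in 3 libraries, the tests without the small cluster and those within 8000 to 30000 UMIs were added after seeing the data. An exact two-sided permutation test over libraries served for shares. Alternatives were DESeq2 1.42.0, RLE scaling, no low-count filter, each library left out, a replicate block, a stricter gate, doublets kept, classes from clusters, no library block, ribosomal genes left out and free RNA subtracted. Promoters came from RefSeq (GRCr8).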

Additional observations from a re-analysis of the deposited data

How the results depend on the processing

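For injected over uninjected, the count of collagen genes called stayed at 0 in fibroblasts, keratinocytes and endothelial cells under DESeq2, RLE scaling, the stricter gate and doublets kept. When single libraries were left out it ranged from 0 to 3 in fibroblasts, from 0 to 1 in keratinocytes and from 0 to 1 in endothelial cells, the higher value each time without uninjected 2. With no filter on low counts it was 1 in endothelial cells. Counts over all genes moved more. In fibroblasts 6 genes became 177 with DESeq2, 363 with no filter and 0 to 653 without single libraries. In keratinocytes 0 became 34 with DESeq2 and 570 without uninjected 2. In endothelial cells 1 became 19 with DESeq2, 213 with no filter and 0 to 820 without single libraries. The cause was not tested. The log2 ratio of basement membrane shares in fibroblasts, 0.06, was -0.0348 with ribosomal protein genes left out and ran from -0.208 to 0.389 without single libraries. In endothelial cells (0.09) it ran from -0.065 to 0.228, and in keratinocytes (0.36) from -0.062 to 0.685. The fibrillar share ratio in fibroblasts, 0.37, ran from 0.28 to 0.46.

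Replicate numbers were shared between groups, but same-numbered libraries did not deviate together (correlations of -0.04 in fibroblasts, -0.06 in keratinocytes and 0.07 in endothelial cells). With the replicate block, 0 collagen genes were called in each of the 3 classes, and all genes called were 14 in fibroblasts and 80 in endothelial cells. Between states, dividing over non-dividing fibroblasts called 6 collagen genes and 1106 genes in all without the library block, and 1997 genes in all within 8000 to 30000 UMIs. Basal over suprabasal keratinocytes called 3392 in place of 6438 genes without that block. With a library left out, mural over fibroblast cells called 1312 and 1335 in place of 2256 genes, and skeletal muscle over fibroblast cells 2431 in place of 3662. Among collagen genes called or at an unadjusted p under 0.05, none changed sign. Of the values recomputed for named collagen genes, 27 of 143 between dividing states, 2 of 120 between layers, 2 of 185 for keratinocytes, 3 of 171 for endothelial, 5 of 48 for mural and 9 of 57 for skeletal muscle cells over fibroblasts, and 5 of 51 for mural over endothelial cells lost their call. Injection in mural and skeletal muscle cells was not run, as 1 library held under 20 of each. Precision is limited by 2 libraries a group and by the 31 to 134 endothelial and 8 to 58 mural cells per library.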
